A study of Marmota monax with 20 samples.

Results

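The heart library is a single RNA-seq library, 1 of 20 in a survey of woodchuck (Marmota monax) tissues, and was chosen by its tissue label. It was set against the other 19 libraries, with 6 livers, 5 kidneys, 5 spleens and a single library for lung, for pancreas and for thymus. The tissues came from 6 adult woodchucks free of woodchuck hepatitis virus, of which M4046, M4075 and M4091 were male and F6849, F6852 and F9150 were female, and the labels name no treatment. Heart and lung were taken from F6849, a colony-born female never exposed to the virus, which also gave a liver, a kidney and a spleen library. Pancreas and thymus were taken from female F9150, liver came from all 6 animals, and kidney and spleen from all but F6852. Heart has no replicate, so the spread between hearts is unknown and nothing on the heart side was tested. Heart also differs from pancreas and thymus in animal, so for these 2 libraries tissue and animal cannot be told apart.

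Heart muscle contracts through sarcomeres, in which myosin pulls on actin filaments under the control of calcium, and its cells make most of their ATP in densely packed mitochondria. In mammals the most abundant transcripts of heart usually encode sarcomere proteins, enzymes of the respiratory chain and fatty acid oxidation, creatine kinase and myoglobin. Liver, kidney and pancreas are largely epithelial and specialised for plasma proteins and metabolism, for transport and for digestive enzymes, whereas spleen and thymus are rich in blood and immune cells. These are textbook roles and not results of this series. The table of counts gives identifiers without names, and 0 of its 30973 identifiers matched any of 34878 woodchuck genes in RefSeq, so the heart label was not checked against muscle markers and genes are given by identifier alone. In bulk tissue, fewer cells of a type and less RNA per cell cannot be told apart.

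The heart library held 70253345 counts, and 7 of the other libraries held fewer, in a range of 59487004 to 140252555. Counts were scaled with TMM factors, which ran from 0.464 to 1.55 over the libraries and were 1.03 for heart, and are given as CPM, counts per unit of the library total after this scaling. CPM does not account for gene length, so the order of genes by abundance within a library is an order by share of counts and not by number of transcripts. Heart was sequenced on lane 8, as were the liver of M4075 and the spleen of M4091.

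The abundance profile of heart lay between those of the evenly spread tissues and those of liver and pancreas. The most abundant gene of heart held 3.61% of its counts, the 10 most abundant 15.7%, the 100 most abundant 31.0% and the 1000 most abundant 59.5%. The 95% Wilson intervals were at most ± 0.0115 percentage points, for counting error only and with each count taken as independent. For all 4 shares heart was above the same 12 libraries, which are those of kidney, spleen, lung and thymus, and below the 6 livers and the pancreas. The 10 most abundant genes of each library held 5.0% ± 0.846 of the counts of a kidney (SD, n = 5), 8.08% ± 1.59 of a spleen (SD, n = 5) and 23.1% ± 4.21 of a liver (SD, n = 6). They held 6.01% in lung, 50.2% in pancreas and 9.37% in thymus. The heart value thus lay outside the range of each replicated tissue, the nearest being a spleen at 10.3% below it and a liver at 18.4% above it.

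Heart also needed an intermediate number of genes to reach a given share of its counts. In heart 546 genes made up 50% of the counts, against 646 in thymus, 1115 ± 67.2 in spleen, 1242 in lung and 1288 ± 34.4 in kidney. Liver needed 106 ± 16.5 genes and pancreas 10. In heart 18762 genes had 10 or more counts. After every library was thinned to the same total it was 18438 in heart, 18387 in thymus, 19940 in lung and 16882 in pancreas. Thinned livers had 16411 to 16883, thinned kidneys 19067 to 19667 and thinned spleens 18727 to 19160, so heart lay between the livers and the spleens without overlap.

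**Figure D1:**
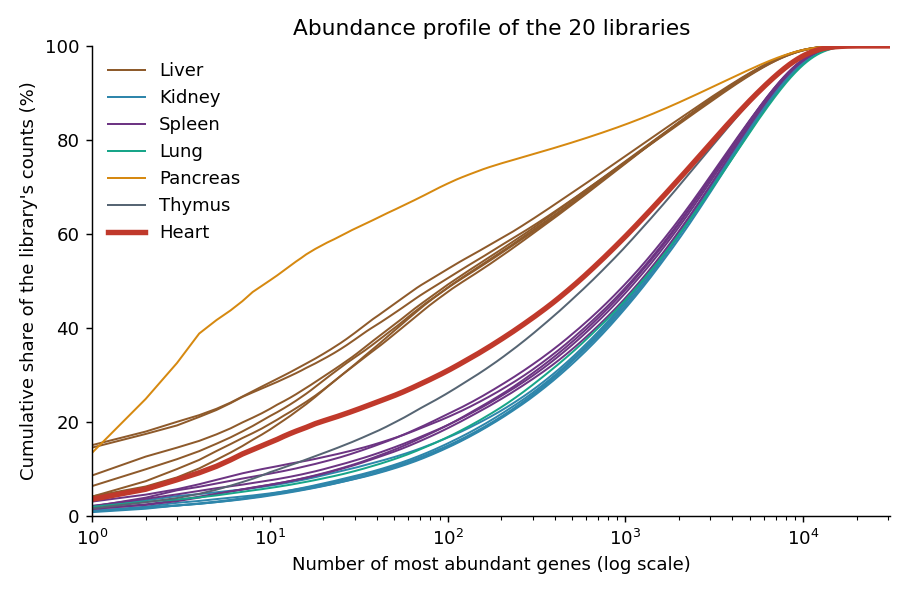
Cumulative share of a library's counts (vertical axis, %) held by its most abundant genes (horizontal axis, number of genes on a log scale), 1 line per library. The heart line reaches 15.7% at 10 genes and 59.5% at 1000 genes, above kidney, spleen, lung and thymus and below liver and pancreas.

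The head of the heart profile was made of genes that were much lower elsewhere. All 10 of the most abundant heart genes were at least 8-fold higher in heart than in any other library, and none of the 10 was among the 10 most abundant of another library. Together they held 0.0205% (pancreas) to 0.0720% (a kidney) of the counts of the other libraries. The most abundant, Monax4B014099, had 2535795 counts in heart, or 35091 CPM. In kidney it was at 5.89, 11.1, 1.46, 4.64 and 1.39 CPM in F6849, F9150, M4046, M4075 and M4091, and in lung at 3.83 CPM. In spleen it ran from 0.0117 to 0.398 CPM, in pancreas it was at 0.103 CPM, and in liver it was at 1.68 CPM in F9150, at 0.571 CPM in M4075 and at 0 in the other 4 libraries. Thymus had 0 counts of it, which allows up to 3 counts if counts are independent, and more where both reads of a pair were counted. All kidneys were therefore above all spleens for this gene, though all far below heart.

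Monax4B027414, the next in order, had 1503678 counts in heart, or 20808 CPM. Its highest value elsewhere was 1.27 CPM in thymus, followed by 0.956 CPM in the kidney of M4075. Spleen ran from 0.0701 to 0.729 CPM, liver from 0 to 0.408 CPM, and lung and pancreas were at 0.637 and 0.411 CPM. Unlike the first gene, it showed no separation of kidney from spleen, whose ranges overlapped. Of the 10 most abundant heart genes, 3 were at 10 CPM or more in every other library: Monax4B029734, Monax4B045026 and Monax4B027666, named after their values were seen, had 111 to 360 CPM, 69.9 to 205 CPM and 10.5 to 168 CPM in the other libraries, against 12207, 8885 and 6825 CPM in heart.

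Genes further down the profile were more widely shared. The 100 most abundant genes of heart held 8.93% of the counts in thymus, 6.70% ± 0.536 in spleen (SD, n = 5), 6.36% ± 0.240 in kidney (SD, n = 5), 5.85% in lung, 5.76% in pancreas and 2.73% ± 0.420 in liver (SD, n = 6). Of these 100 genes, 27 were also among the 100 most abundant of lung, 22 of thymus, 22 to 27 of a kidney, 16 to 20 of a spleen, 11 of pancreas and 3 to 5 of a liver. Among the 500 most abundant genes the number shared with heart was 252 in thymus, 238 in lung, 219 ± 9.24 in kidney, 164 ± 8.90 in spleen, 156 in pancreas and 118 ± 8.71 in liver.

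To ask which genes set heart apart, a gene was counted as higher in heart when it had at least 10 CPM there and at least 4 times the level of every library of the compared tissue. It was counted as lower when every library of that tissue had at least 10 CPM and at least 4 times the heart level. Counts under 3 were set to 3, so that a fold against a library at 0 is a lower bound. In heart 9487 genes reached 10 CPM and could be called higher. The rule has no p-value and becomes stricter with the number of libraries that a tissue has, so the counts for single libraries and for groups are not on the same footing.

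Against all 19 libraries, 370 genes were higher in heart, 3.9% of those that could be, and held 28.1% of its counts. Only 4 of 6037 genes were lower in heart than in every other library, 0.0663%. Lung, pancreas and thymus were each set against the 19 remaining libraries in the same way. Lung had 199 genes higher (2.01% of those that could be) and 0 lower. Pancreas had 193 higher (2.09%) and 2 lower (0.0333%), and thymus 104 higher (1.14%) and 3 lower (0.05%). At 8-fold instead of 4-fold, heart had 243 genes higher (2.56%), lung 130 (1.31%), pancreas 119 (1.29%) and thymus 13 (0.142%). None of these libraries had a gene lower than all others at 8-fold.

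The 243 genes at 8-fold were unevenly spread over the levels of heart. They made up 113 of 7737 genes between 10 and 100 CPM (1.46%), 95 of 1677 between 100 and 1000 CPM (5.66%) and 35 of 73 above 1000 CPM (47.9%). The 35 genes held 21.4% of all heart counts, the 95 held 3.37% and the 113 held 0.458%. The median fold over the highest other library was 50.3. The fold was 8 to 16 for 58 genes, 16 to 64 for 74, 64 to 256 for 57 and above 256 for 54, while 4 genes had 0 counts in all 19 libraries. Around the limit, 12 genes lay between 8-fold and 9-fold and 22 between 7-fold and 8-fold.

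Of these 243 genes, 202 reached 10 CPM throughout in no other tissue and 6 did so in all 6. By their choice all 243 genes lay below heart in every other library, but their level differed between the other tissues. Their summed level was 245082 CPM in heart, 1493 CPM in lung, 1450 CPM in thymus, 1372 ± 167 CPM in kidney (SD, n = 5), 1174 ± 146 CPM in spleen (SD, n = 5), 893 ± 84.3 CPM in liver (SD, n = 6) and 884 CPM in pancreas. The next highest tissue, by the median of its libraries, was lung for 68 genes, thymus for 54, spleen for 41, kidney for 33, pancreas for 24 and liver for 23. The number of these genes with 0 counts was 19 in lung, 52 in thymus, 58 in pancreas, 38 to 49 in a kidney, 30 to 48 in a spleen and 61 to 92 in a liver. Lung thus held traces of more of them than any other library. Lung had 104383997 counts in all, and the part of depth in this number was not tested.

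The genes with the largest ratio of heart to the highest other library were Monax4B019277 and Monax4B043103. Monax4B019277 had 13231 CPM in heart, and at most 18 counts (0.199 CPM, in the spleen of M4091) in any other library, with 12 of the 19 at 0. Monax4B043103 had 19549 CPM in heart, with 12 of the 19 at 0 and at most 0.327 CPM, in the liver of M4075. For both genes the highest value elsewhere was in a library that shared the lane of heart. This was looked at over the 17 genes of the 243 that had at least 1000 CPM in heart and a median below 1 CPM elsewhere, a set chosen after the values were seen. The spleen of M4091 was the highest spleen for 9 of the 17, and the liver of M4075 the highest liver for 7, as was the liver of F9150 on another lane. The summed counts of these genes in the 2 libraries were 0.610 and 0.854 per 10000 counts in heart. Of the 17 genes, the spleen of M4091 had 0 at 0 counts, against 2 to 5 in the other spleens. The liver of M4075 had 2, against 5 to 9 in the other livers. Their summed levels in these 2 libraries were 7.18 and 18.6 CPM, against 8.02 CPM in the spleen of M4046 and 27.2 CPM in the liver of F9150. Over all 243 genes the spleen of M4091 was the lowest spleen at 979 CPM, and the liver of M4075 lay within the other livers at 939 CPM. Traces of a few CPM are too small to show in these larger sums. The part of the shared lane in these traces was not tested.

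The 4 genes lower in heart than in every other library were expressed in all of them. Monax4B016601 stood at 14.7 CPM in heart (1062 counts). It was at 871 ± 199 CPM in liver (SD, n = 6), with 599 CPM in the lowest and 1099 CPM in the highest, at 645 ± 39.2 CPM in kidney (SD, n = 5) and at 118 ± 14.7 CPM in spleen (SD, n = 5). Lung was at 118 CPM, pancreas at 135 CPM and thymus at 153 CPM, so that the lowest library, the spleen of F9150 at 104 CPM, was 7.09-fold above heart. The other tissues fell into a high pair, liver and kidney without overlap with the rest, and a lower set of spleen, lung, pancreas and thymus.

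Monax4B027209 was at 2.41 CPM in heart (174 counts). It was highest in spleen, with 51.5, 81.6, 111, 110 and 115 CPM in F6849, F9150, M4046, M4075 and M4091. Liver ran from 30.9 to 53.8 CPM, and kidney, lung, pancreas and thymus from 16.2 to 22.7 CPM, 6.73-fold above heart at the lowest. The remaining pair is named because only 4 genes met the rule and was chosen after the values were seen. Monax4B013704 was at 6.92 CPM in heart and 28.4 to 78.4 CPM elsewhere, and Monax4B042591 at 5.84 CPM in heart and 23.8 to 76.2 CPM elsewhere, which puts the nearest libraries 4.11-fold and 4.07-fold above heart. With library sizes alone as the scaling, 2 genes met the rule.

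**Figure D2:**
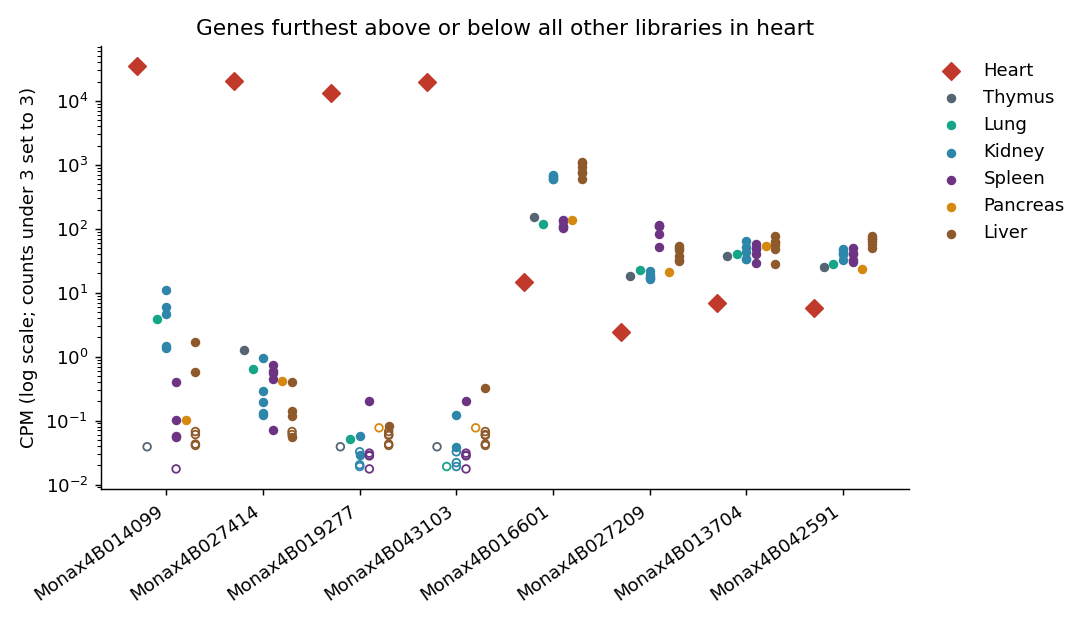
Level of 8 genes in every library (vertical axis, CPM on a log scale), diamonds for heart and circles for the other 19 libraries by tissue, with open circles for libraries with fewer than 3 counts, drawn at 3 counts. Heart stands at 13231 CPM or more for the first 4 genes, where no other library exceeds 11.1 CPM, and below every other library for the last 4, by 4.07-fold to 7.09-fold.

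Most of what heart expressed was expressed everywhere. Of the 9487 genes at 10 CPM or more in heart, 5935 (62.6%) reached 10 CPM in every library of all 6 other tissues, and these held 61.1% of the heart counts. At the other end, 537 genes (5.66%) reached 10 CPM throughout in no other tissue and held 19.7% of the counts. The genes in between, shared with 1 to 5 tissues, held 2.09%, 3.08%, 2.21%, 3.44% and 5.78% of the counts. The 371 genes shared with a single tissue were shared with thymus in 122 cases, pancreas in 90, lung in 61, kidney in 34, spleen in 33 and liver in 31. The 1020 genes missing from a single tissue were missing from liver in 441 cases and from spleen in 364, and from each remaining tissue in 16 to 67. A tissue with more libraries has more chances to miss a gene under this rule.

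Conversely, few broadly expressed genes were low in heart. Of the 6037 genes at 10 CPM or more in all 19 other libraries, 102 (1.69%) were below 10 CPM in heart. Their median level in heart was 8.39 CPM, and the lowest other library was 1.52-fold above heart at the median. At least 2-fold below the lowest other library were 17 of the 102.

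**Figure D3:**
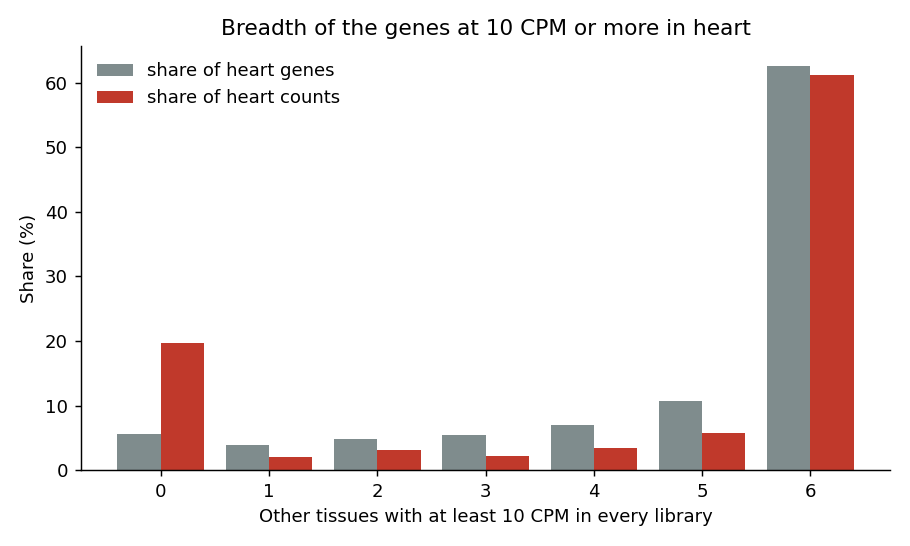
Genes at 10 CPM or more in heart by the number of other tissues in which every library also has at least 10 CPM (horizontal axis), as a share of the 9487 genes (grey bars, %) and of the heart counts (red bars, %). Genes that reached 10 CPM throughout in no other tissue are 5.66% of the genes and 19.7% of the counts. Genes that did so in all 6 are 62.6% and 61.1%.

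Thymus was the nearest tissue to heart and liver the farthest. Pearson's r of log2 CPM over 23602 genes was 0.879 with thymus, 0.848 with lung, 0.828 ± 0.00762 with kidney (SD, n = 5), 0.827 ± 0.00821 with spleen (SD, n = 5), 0.812 with pancreas and 0.756 ± 0.00426 with liver (SD, n = 6). These correlations run across genes, which are not independent, and describe the libraries without a test. The kidneys had 0.832, 0.822, 0.835, 0.832 and 0.817 in F6849, F9150, M4046, M4075 and M4091, and the spleens 0.832, 0.838, 0.821, 0.824 and 0.819. The ranges of kidney and spleen overlapped, so their order is not resolved, whereas the livers, at 0.753 to 0.765, were below every other library. Thymus, lung and pancreas have 1 library each and no spread of their own.

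The order of the tissues was the same without the 243 genes restricted to heart, where r was 0.903 with thymus, 0.871 with lung, 0.852 with kidney, 0.851 with spleen, 0.837 with pancreas and 0.781 with liver. Thymus came before lung, and lung before the rest, within each of 4 equal sets of genes by mean level, with r of 0.324, 0.529, 0.602 and 0.713 for thymus from the lowest to the highest set and 0.232, 0.424, 0.503 and 0.696 for lung. Liver was last in each set, at 0.0316, -0.115, -0.205 and 0.257. The mean level was taken over all 20 libraries, 6 of them livers and 1 heart. Values of r within such sets depend on these weights, so the order within sets is not separate support for the order of the tissues. Lung came from the same animal as heart and thymus did not. Within liver, kidney and spleen the library of F6849 was in no case the one most like heart. The library of F9150, the animal that gave the thymus, was the liver and the spleen most like heart, at 0.765 and 0.838, and ranked below 3 of the other kidneys. The part of the animal in the thymus value was not tested. The libraries on the lane of heart, the liver of M4075 and the spleen of M4091, had the lowest r of their groups.

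The nearness was not mutual. For thymus the nearest tissue was lung, with r of 0.885, and heart came next. For lung the nearest was thymus, and heart ranked 8 among the libraries of other tissues. Lung and thymus were both sequenced on lane 7, and the part of this lane in their r was not tested. For every liver, heart ranked 14 of 14. As a count of genes, 70.4% of the 9487 heart genes were within 2-fold of heart in thymus, 69.7% in lung, 68.3% ± 1.65 in kidney (SD, n = 5), 57.1% in pancreas, 55.1% ± 0.344 in liver (SD, n = 6) and 54.8% ± 2.45 in spleen (SD, n = 5). By this measure thymus and lung lay within 2 SD of the kidney mean, and spleen, close to kidney by r, did not differ from liver beyond its spread.

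**Figure D4:**
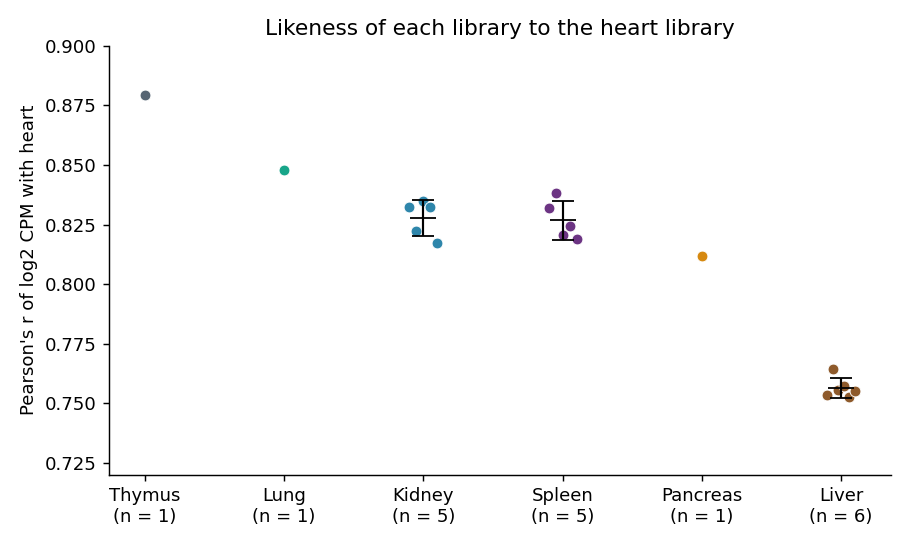
Pearson's r of log2 CPM with the heart library over 23602 genes (vertical axis, which does not start at 0) for each of the 19 other libraries, grouped by tissue, with the mean and SD where a tissue has replicates. Thymus stands highest at 0.879 and all 6 livers lowest at 0.753 to 0.765, while the kidneys and spleens overlap.

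Counts of differing genes gave a like order at its near end when each library was compared with heart 1 to 1, which removes the effect of group size. Both directions together came to 1550 genes against thymus, 1883 against lung, 2113 ± 104 against a kidney (SD, n = 5), 2653 against pancreas, 2971 ± 167 against a spleen (SD, n = 5) and 3324 ± 66.9 against a liver (SD, n = 6). Genes higher in heart numbered 925 against thymus, 874 against lung, 1010 ± 85.3 against a kidney, 1475 against pancreas, 1704 ± 141 against a spleen and 1671 ± 50.0 against a liver. Genes lower in heart numbered 625, 1009, 1103 ± 46.8, 1178, 1267 ± 99.1 and 1653 ± 78.9 in the same order of tissues. Thymus, pancreas and spleen had more genes on the heart side and lung more on its own side, and for liver and kidney the 2 directions differed by about their spread.

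**Figure D5:**
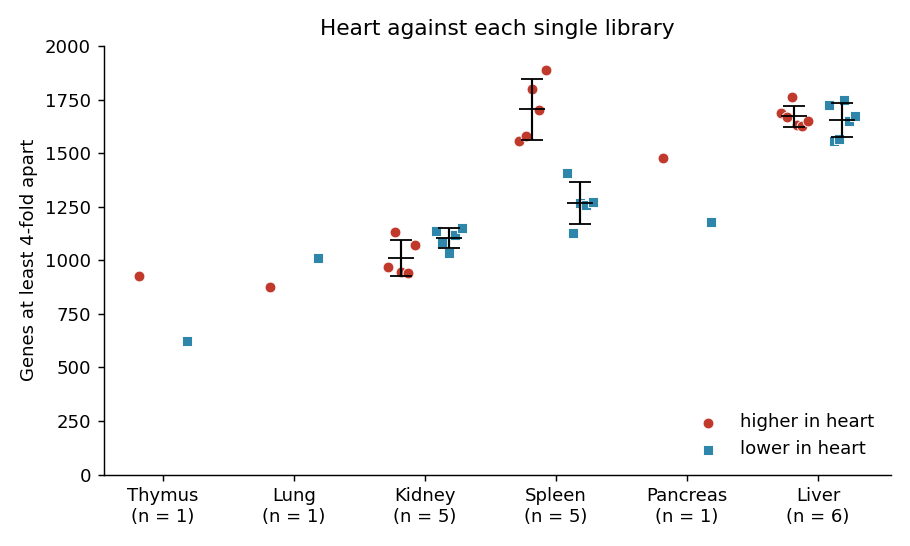
Genes at least 4-fold higher (circles) or lower (squares) in heart than in each single library (vertical axis, number of genes), with the mean and SD for tissues with replicates. Thymus has the fewest genes in total, 1550, and the livers the most, 3324 on average.

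Against all 6 livers, 1304 genes were higher in heart (13.7% of those that could be) and held 38.5% of its counts. There were 1132 of 8206 genes lower (13.8%), and these held 64.7% of the liver counts on average and 1.74% of those of heart. The median fold to the nearest liver was 14.6 for the higher and 22.8 for the lower genes, with 91 of the lower genes at 0 counts in heart. The genes named here and for the tissues that follow were taken from those that a further tissue also expressed within 8-fold, so their presence in a further tissue was set by that choice. Monax4B039405 was at 382 CPM in heart, at 67.1 CPM in lung and at 0 to 0.0858 CPM in the livers. Monax4B002253 was at 181 CPM in heart and 167 CPM in thymus, with 34.7 CPM in lung, and had 4 counts in the liver of M4075 and 0 in the other 5 livers. In the other direction, Monax4B019386 ran from 2407 to 3317 CPM in liver and from 147 to 435 CPM in kidney. Heart had 2 counts of it, a ratio to the lowest liver of 86953 with a counting interval of 24071 to 717996. The counting intervals given here and for the tissues that follow take each count as independent. They are too narrow where 2 counts are the reads of a single pair. Monax4B026145 had 1191 to 3021 CPM in liver, 11.9 to 321 CPM in kidney and 0 counts in heart, at least 28697-fold lower.

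Against all 5 kidneys, 756 genes were higher in heart (7.97%) and held 33.2% of its counts, and 711 of 8709 were lower (8.16%) and held 15.6% of the kidney counts on average. The median fold was 13.3 for the higher and 19.7 for the lower genes. Monax4B014850 was at 284 CPM in heart, 218 CPM in pancreas, 58.3 to 132 CPM in liver and at most 0.0678 CPM in kidney. Monax4B022783 was at 340 CPM in heart and 97.1 CPM in thymus, and at 0.0216 to 0.115 CPM in kidney. Monax4B005985 had 719 to 985 CPM in kidney, 341 CPM in pancreas and 2 counts in heart, a ratio of 25968 with a counting interval of 7189 to 214428. Monax4B007480 had 1185, 791, 457, 374 and 452 CPM in the kidneys of F6849, F9150, M4046, M4075 and M4091 and 790 to 1430 CPM in liver. Heart had 2 counts of it, a ratio to the lowest kidney of 13525 with a counting interval of 3744 to 111683. Lung, from the same animal as heart, had 0 counts.

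Against all 5 spleens, 1252 genes were higher in heart (13.2%) and held 43.5% of its counts, and 708 of 8250 were lower (8.58%) and held 15.8% of the spleen counts on average. The folds were smaller than for liver and kidney, with medians of 9.67 and 11.6, and 3 of the lower genes had 0 counts in heart, against 91 for liver and 66 for kidney. Monax4B019807 was at 265 CPM in heart, 32.0 to 77.6 CPM in liver and 0.206 to 0.420 CPM in spleen. Monax4B038729 was at 431 CPM in heart, 346 CPM in thymus, 67.0 CPM in lung and 0.206 to 1.13 CPM in spleen. The lower genes were present in heart at a low level: Monax4B007931 had 130 counts there (1.8 CPM) against 172 to 337 CPM in spleen, 95.4-fold at the nearest. Monax4B009192 had 168 counts in heart (2.32 CPM) and 141, 153, 208, 238 and 357 CPM in the spleens of F6849, F9150, M4046, M4075 and M4091, 60.8-fold at the nearest.

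Against lung, 874 genes were higher in heart (9.21%) with 35.6% of its counts, and 1009 of 9886 were lower (10.2%) with 15.9% of the lung counts. Monax4B022185 and Monax4B016757 were at 287 and 133 CPM in heart and at 0.178 and 0.0891 CPM in lung. Both lay between lung and heart in kidney, at 5.82 to 20.6 CPM and 1.95 to 6.58 CPM, and in pancreas, at 8.06 and 2.93 CPM. In spleen they were at 44.0 and 28.7 CPM in M4046 and below 0.4 CPM in the other 4 libraries. Lower in heart was Monax4B027423, with 4 counts there against 1695 CPM in lung, 105 to 767 CPM in kidney and 136 to 465 CPM in liver. Monax4B023546 had 0 counts in heart, 516 CPM in lung and 42.7 to 164 CPM in liver, at least 12418-fold lower in heart than in lung.

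Against pancreas, 1475 genes were higher in heart (15.5%) with 44.8% of its counts. There were 1178 of 9230 genes lower (12.8%), and these held 77.2% of the pancreas counts and 5.36% of those of heart, the largest such share of heart among the 6 tissues. Monax4B006042 was at 369 CPM in heart and 41.2 to 104 CPM in liver and had 0 counts in pancreas, at least 4795-fold higher in heart. Monax4B026826 was at 172 CPM in heart, 43.5 to 86.3 CPM in liver and 0.103 CPM in pancreas. Monax4B025906 had 0 counts in heart, 429 CPM in pancreas and 267 to 616 CPM in kidney, at least 10341-fold lower in heart than in pancreas. Monax4B009199 had 2 counts in heart and 407 CPM in pancreas, a ratio of 14703 with a counting interval of 4070 to 121410, and was higher still in liver, at 611 to 1404 CPM.

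Against thymus, 925 genes were higher in heart (9.75%) with 34.1% of its counts, and 625 of 9134 were lower (6.84%) with 22.9% of the thymus counts. The median fold was 18.1 for the higher genes, the largest of the 6 tissues, and 7.38 for the lower genes, the smallest. For liver, kidney and spleen the fold is to the nearest of several libraries, so these ranks are not on the same footing. Monax4B038737 was at 317 CPM in heart, 40.7 CPM in pancreas and 0.0779 CPM in thymus. Monax4B014001 was at 113 CPM in heart, 43.8 CPM in lung and 0.0779 CPM in thymus. Lower in heart was Monax4B011824, at 0.332 CPM (24 counts) against 7668 CPM in thymus and 1006 CPM in lung, and at no more than 0.124 CPM in any liver, kidney or spleen. Monax4B021728 was at 0.554 CPM in heart (40 counts) against 6106 CPM in thymus, 994 to 6666 CPM in liver, 1397 to 3073 CPM in kidney and 1020 CPM in lung. Spleen was as low as heart for this gene, at 0.164 to 1.30 CPM.

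The balance of directions depended on the scaling. Of the genes called, 53.5% were higher in heart against liver with TMM factors and 73.2% with library sizes alone. The corresponding shares were 51.5% and 35.2% for kidney, 63.9% and 44.7% for spleen, 46.4% and 27.2% for lung, 55.6% and 86.8% for pancreas, and 59.7% and 53.7% for thymus. With library sizes alone the median gene shifted, as the log2 difference of tissue minus heart, by -0.94 for liver, 0.52 for kidney, 0.53 for spleen, 0.55 for lung, -1.15 for pancreas and 0.15 for thymus.

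Few genes were shared by heart and 1 other tissue to the exclusion of the rest. With both at 10 CPM or more and at least 8-fold above every remaining library, 5 genes were shared with liver, 5 with lung, 5 with pancreas, 2 with thymus, 1 with spleen and 0 with kidney. At 4-fold the numbers were 10, 10, 12, 12, 6 and 2. So thymus, nearest by r, did not have the most such genes at 8-fold. Monax4B044220 was at 62.9 CPM in heart and 95.9 to 206 CPM in liver, and at no more than 0.498 CPM elsewhere. Monax4B027652 was at 44.0 CPM in heart and 22.8 to 87.4 CPM in liver, and at no more than 0.286 CPM elsewhere. With lung, heart shared Monax4B029441 at 64.2 CPM (lung 45.1 CPM, at most 2.92 CPM elsewhere) and Monax4B041799 at 72 CPM (lung 39.7 CPM, at most 4.44 CPM elsewhere). With pancreas it shared Monax4B012216 at 22.6 CPM (pancreas 20.9 CPM, at most 1.07 CPM elsewhere). Monax4B025634 was at 13.9 CPM in heart but 1470 CPM in pancreas, with at most 0.429 CPM elsewhere.

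The 500 most abundant genes of heart were then followed in the tissues with replicates, where differences could be tested without the heart library. Of the 500, 486 were among the 20764 genes tested with edgeR's quasi-likelihood test in liver, kidney and spleen at a false discovery rate of 0.05. Between kidney and spleen, 231 of them (47.5%) were higher in kidney and 123 (25.3%) in spleen, against 31.6% and 30.9% of all genes tested. Their median log2 difference, kidney minus spleen, was 0.42 against -0.01 for all genes. Between liver and kidney, 209 (43.0%) were higher in liver and 159 (32.7%) in kidney, against 32.1% and 30.9%. Between liver and spleen, 235 (48.4%) were higher in liver and 159 (32.7%) in spleen, against 34.5% and 39.5%. The 500 most abundant genes of thymus, lung and pancreas, taken in the same way, were higher in kidney than in spleen for 52.8%, 37.9% and 29.0%, and higher in spleen for 21.1%, 33.9% and 39.7%. The excess on the kidney side was therefore also seen for thymus and was not particular to heart. In the same order, these lists were higher in liver than in kidney for 52.2%, 46.4% and 63.9%, and higher in kidney for 25.1%, 25.8% and 13.4%. They were higher in liver than in spleen for 60.6%, 45.6% and 49.8%, and higher in spleen for 24.9%, 34.1% and 25.8%. The excess on the liver side was thus not particular to heart either. For the heart list with library sizes alone, the share higher in liver than in kidney was 6.38% and that higher in kidney 84.4%. The shares higher in liver than in spleen and in spleen than in liver were 19.1% and 66.3%, so both balances of liver turned with the scaling. They also moved with the length of the list. Of the 100 most abundant heart genes, 96 were tested, and 34.4% were higher in liver and 42.7% in kidney, 36.5% in liver and 35.4% in spleen, and 45.8% in kidney and 22.9% in spleen.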

How the data were processed

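RNA-seq libraries of polyadenylated RNA (TruSeq RNA v2, paired reads on a HiSeq2500) were compared over 7 tissues. The deposited table holds whole-number read counts for 30973 genes of the Monax4B annotation in 20 libraries, without normalization. Per the labels and methods, the authors used CASAVA 1.8.4 and FastQC 0.11.5, mapped with gem-tools rna-mapper 1.6.1 and quantified with gemtools 1.7.1. Between 85.1% and 86.5% of the counts above 0 are even, so both reads of most pairs seem to have been counted, and a floor of 3 counts is less than 3 pairs. The lane was read from the column names, and every column belongs to a sample. The genome was not used here.

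CPM used TMM factors (edgeR 4.0.16, limma 3.58.1, R 4.3.3). Log2 CPM had a prior count of 2, over 23602 genes kept by filterByExpr of 27092 with any count. The remaining steps used Python 3.11.15 with pandas 2.3.3, numpy 2.4.6, scipy 1.17.1 and matplotlib 3.10.9. A gene was called at 4-fold beyond every library compared and 10 CPM on the higher side, and called restricted at 8-fold. Intervals and floors cover counting error only. They take each count as independent. Where both reads of a pair were counted, intervals are too narrow and floors too low. Liver, kidney and spleen were tested in 1 edgeR quasi-likelihood fit of 16 libraries, adjusted by Benjamini-Hochberg at 0.05, and both kinds of script were tested on simulated data. Libraries of an animal are paired by the labels, and their deviations from the tissue means correlated at 0.123 to 0.314 in all 15 pairs. No 2 libraries of a tissue agreed within sampling noise (35 pairs). P-values rest on animals as replicates within a tissue. The main fit had no term for animal, so it took libraries of the same animal in different tissues as independent.

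Named genes are the 2 most abundant in heart, the 2 with the largest ratio in each direction against all 19 libraries (at least 100 CPM in heart, or 10 CPM in every other), and 2 per direction against each tissue. The latter have at least 100 CPM on the higher side and a library of a further tissue within 8-fold. For genes shared with a tissue, 2 were named for each of the 3 tissues tied at 5. The comparison and the lists were chosen with earlier results of these data known. The alternatives were RLE factors and library sizes alone, DESeq2 1.42.0, 8-fold, no minimum or 1 CPM, the median of a tissue, animal F6849 only, Spearman's rho, a prior count of 0.5, no filter, 100 and 1000 abundant genes, a replicate block, each replicate left out and, added after seeing the data, a floor of 6 counts.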

Additional observations from a re-analysis of the deposited data

Results flagged for a closer look

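In 110 groups of values from 5 or 6 libraries, 1 library lay far from the others of its tissue by Dixon's criterion in 11. Chance alone gives about 1 in 20 for independent and normally distributed values. Several of these groups hold low counts and some are linked, so the 11 cannot be measured against that rate. The liver of F9150 was more like heart (r of 0.765) than the other 5 livers (0.753 to 0.757). The 1000 most abundant genes held 76.6% of the counts in the liver of F6852 and 75.0% to 75.5% in the other livers, against 59.5% in heart. The 10 most abundant genes held 6.48% in the kidney of M4091 and 4.39% to 4.86% in the other kidneys.

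The remaining 8 concern genes named for heart. Monax4B022185 was at 44.0 CPM in the spleen of M4046 and 0.0701 to 0.363 CPM in the other spleens, and Monax4B016757 at 28.7 CPM there and 0.0467 to 0.177 CPM in the others. Both genes had been named because this spleen lay within 8-fold of heart, so their flags follow in part from that choice. Monax4B039405 was at 1.18 CPM in the spleen of M4075 (others 0.280 to 0.530 CPM). In kidney, M4046 stood out for Monax4B002253 at 0.590 CPM (others at most 0.109 CPM) and Monax4B026826 at 1.55 CPM (others 0.191 to 0.476 CPM), M4075 for Monax4B027414 at 0.956 CPM (others 0.122 to 0.285 CPM) and M4091 for Monax4B044220 at 0.498 CPM (others 0.0190 to 0.0880 CPM). In liver, Monax4B007931 was at 33.1 CPM in F6849 and 14.1 to 20.7 CPM in the others.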

How the results depend on the processing

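With 1 heart library, nothing measured here gives the spread between hearts, and a call says only that heart lay beyond the libraries at hand. Depth limits the folds of genes at 0 counts on either side, which are lower bounds at 3 counts. Of the results named as genes, 10 values moved by more than the spread, all with library sizes alone, 418 did not, and none changed direction. Thymus was nearest and lung next in each of 6 settings of r, while kidney, spleen and pancreas changed places.

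The larger relative shifts in the numbers of genes higher and lower in heart are listed first, and the list is not complete. With library sizes alone there were 2104 higher against liver, 1148 lower against spleen, 1735 lower against lung, 3112 higher and 472 lower against pancreas, and 2 lower than all others. At 8-fold there were 475 higher against kidney, 718 higher and 445 lower against spleen, 543 and 591 against lung, 840 and 682 against pancreas, 286 lower against thymus, and 243 higher and 0 lower against all. Without a minimum level there were 2564 higher and 1775 lower against liver, 1368 and 1597 against kidney, 2178 and 1672 against spleen, 1860 and 2975 against lung, 2980 and 2599 against pancreas, 2246 and 1675 against thymus, and 34 lower than all others. Against the median of spleen 1169 were lower. Against animal F6849 only, 1725 were lower for liver, 1136 for kidney and 1409 for spleen. Among the smaller shifts, library sizes alone gave 771 lower against liver, 570 higher and 1050 lower against kidney, and 927 higher against spleen. At 8-fold the smaller shifts gave 880 higher and 820 lower against liver, 488 lower against kidney and 627 higher against thymus. Without a minimum level, 535 were higher against all.

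For r with liver, kidney, lung, pancreas and thymus, Spearman's rho gave 0.773, 0.839, 0.860, 0.829 and 0.889 and a prior count of 0.5 gave 0.749, 0.816, 0.837, 0.799 and 0.867. Without a filter r was 0.814, 0.873, 0.888, 0.857 and 0.908, and 0.871 with spleen. Without the 243 restricted genes it was 0.781, 0.852, 0.871, 0.837 and 0.903, and 0.851 with spleen, and the shares of the 10, 100 and 1000 most abundant genes of heart were 4.37%, 16.2% and 49.2%.

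Genes shared with 1 tissue at 4-fold numbered 10 for liver, 2 for kidney, 6 for spleen, 10 for lung, 12 for pancreas and 12 for thymus. With library sizes alone there were 3 for kidney, 9 for lung, 1 for pancreas and 1 for thymus, with a minimum of 1 CPM 2 for kidney, 3 for spleen, 11 for lung and 8 for pancreas, and with animal F6849 only 12 for liver, 7 for kidney and 6 for spleen. With library sizes alone, the 500 most abundant heart genes were higher in liver than kidney for 6.38%, in kidney than liver for 84.4%, in liver than spleen for 19.1% and in spleen than liver for 66.3%. The cause of these shifts was not tested, beyond the fewer libraries or the looser limit that a setting itself brings.

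Leaving out each replicate in turn gave 1312 to 1349 higher and 1146 to 1198 lower against liver, 764 to 796 and 728 to 765 against kidney, 1267 to 1354 and 719 to 790 against spleen, and 370 to 377 and 4 to 5 against all. Shared genes came to 5 to 7 for liver, 0 to 2 for kidney, 1 for spleen, 5 to 6 for lung, 5 to 6 for pancreas and 2 to 3 for thymus. With animal as a replicate block in the paired fit of liver, kidney and spleen, the 6 shares of heart's abundant genes ran from 25.1% to 47.5%, with the share higher in kidney than spleen at 47.5%, and the block moved no share by over 1.5 times. Under DESeq2 they ran from 25.1% to 49.8%.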

Other observations

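The pair Monax4B022185 and Monax4B016757, high in heart and in a single spleen, were the 2 genes, and the only 2, that stood at least 8-fold and at 10 CPM or more above all other spleens in the spleen of M4046. Both were at 10 CPM or more in heart. The pair had been named for at least 100 CPM in heart and a library of a further tissue within 8-fold. The highest such library was the spleen of M4046, so the level of the pair in heart and in this spleen was set by that choice. The spleen of F6849 had 39 genes standing out in this way, 4 of them at 10 CPM or more in heart, and the other 3 spleens had 0 to 2. The summed level of the pair was 420 CPM in heart, 72.7 CPM in the spleen of M4046 and 0.117 to 0.478 CPM in the other spleens. Every kidney held the pair, at 7.77 CPM in M4091 to 27.1 CPM in F6849. Pancreas was at 11 CPM, lung at 0.267 CPM, liver at 0 to 0.743 CPM and thymus at 0. Whether these values come from the tissue taken or from another source was not tested.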
